A study of Mus musculus with 14 samples.

Results

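Cadherin and protocadherin genes were examined in peak lists of 2 Polycomb-related ChIP-seq targets from mouse heart cells. The genes are the protein-coding genes of the GRCm38 RefSeq annotation named Cdh followed by a number, or with a name that starts with Pcdh, without Cdh5. They number 91 of 21887 protein-coding genes on the assembled nuclear chromosomes. The naming rule uses no measured value, although the family was picked for study with earlier results of these data known. Of the 91, 34 stand alone in the genome and 57 belong to the clustered alpha, beta and gamma protocadherin arrays of chromosome 18. Gene models overlap within the alpha and gamma arrays, while those of the beta array are separate.

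ChIP-seq used antibodies to BMI1, a subunit of Polycomb repressive complex 1, and to H2AK119ub, histone H2A ubiquitinated by complexes of that family. The cells were cardiac Sca1+CD45- cells of C57BL/6 mice aged 6 to 8 weeks, enriched by magnetic sorting for a surface antigen of stromal and progenitor-type cells and against leukocytes. Damage mice had been given 20 mg/kg of the superoxide-generating herbicide paraquat in PBS, as 1 intraperitoneal dose, and Homeostasis mice PBS alone. The time between dosing and isolation is not in the labels, which describe a culture step without saying whether the immunoprecipitated cells went through it. Each treatment and antibody had 3 libraries, 12 in all, and nothing in the labels says that they came from separate animals, so p-values measure the spread between libraries, which may be technical. The 2 Input libraries, labelled as not treated, were not analysed here. Peak lists hold no expression values, so the identity of the sorted cells was not checked against marker genes.

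Classical and type II cadherins are calcium-dependent adhesion proteins that bind like molecules on neighbouring cells and connect through catenins to actin. Protocadherins share the extracellular repeats but not the catenin-binding tail. They are best known for cell recognition among neurons, where the clustered genes give each cell its own surface code through the choice of promoters. In the heart, N-cadherin joins cardiomyocytes at intercalated discs. Polycomb repressive complex 1 is known for silencing developmental genes, often at CpG-rich promoters.

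The Homeostasis lists held 2000 to 13487 peaks and the Damage lists 19 to 68, on GRCm38. Peaks were 101 to 201 bp wide, their deposited score was 1 throughout, and read depth is unknown. Homeostasis H2AK119ub replicate 1 was the shortest Homeostasis list (2000 peaks) and replicate 2 the longest (13487), so counts for that antibody differed more between lists than counts for BMI1. A peak was assigned to a gene when it overlapped the gene or the 5 kb on either side.

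At homeostasis, peaks were found in or near many of the long, stand-alone cadherin and protocadherin genes and were nearly absent from the clustered arrays. A BMI1 peak was present in 2 or more of the 3 lists for 15 members (16.5%), against 7.34% of all protein-coding genes. An H2AK119ub peak was present in 2 or more lists for 16 members (17.6%), against 9.63% of all genes. Peaks per gene follow gene length, and the median length was 126 kb for the 34 stand-alone members against 17.2 kb for all genes. Each member was therefore set beside the 200 other protein-coding genes nearest to it in length. Among such genes 19.1% had a BMI1 peak and 24.5% an H2AK119ub peak in 2 or more lists. For H2AK119ub the 91 members as a whole were fewer than expected from length by each recurrence rule (29 against 35.4 in 1 or more lists, 16 against 22.3 in 2 or more and 4 against 7.69 in all 3). For BMI1 they were close to it (27 against 26.9, 15 against 17.4 and 11 against 11.3), and the ratio of members with a peak to the expectation was 0.981 ± 0.323 over the lists (SD, n = 3). Of the 27, and of the 29 for H2AK119ub, 9 are overlapping gamma array genes that share 1 site. The BMI1 ratio was 1.33 in replicate 1, which holds that site, and 0.693 and 0.921 in replicates 2 and 3. Closeness by the 1-list rule and in the mean ratio thus rests on 1 peak counted 9 times. The expectation for the 91 likewise counts each overlapping alpha and gamma gene as a separate long gene. Of the 22.3 expected for H2AK119ub, the alpha genes gave 5.33 and the gamma genes 4.68. The H2AK119ub shortfall is therefore not a trait of the stand-alone genes. These were 20 against 16.8 in 1 or more lists, 16 against 11.5 in 2 or more and 4 against 4.41 in all 3. Of all genes, 12.4% had a BMI1 peak and 17.8% an H2AK119ub peak in 1 or more lists. All 15 and all 16 were stand-alone genes. For these 34 alone the shares were 44.1% against 27.6% of length neighbours for BMI1, and 47.1% against 33.9% for H2AK119ub. Of the 57 clustered genes, 0 had a recurrent peak with either antibody. In all 3 lists, 11 members had a BMI1 peak (4.45% of all genes did) and 4 an H2AK119ub peak (2.92% of all genes), all stand-alone. By this stricter rule the stand-alone share was 32.4% against 19.0% of length neighbours for BMI1 but 11.8% against 13.0% for H2AK119ub, so the H2AK119ub excess was lost. The H2AK119ub count of 16 rested on replicates 2 and 3: requiring a peak in both remaining lists, it was 4 without replicate 2 and 5 without replicate 3. With each list taken separately, stand-alone members with a peak outnumbered the expectation from their length neighbours by 1.52 ± 0.183 times for BMI1 (SD, n = 3, range 1.36 to 1.72) and 1.19 ± 0.0907 times for H2AK119ub (n = 3, range 1.09 to 1.26). These shares describe the list, and no test was applied to it.

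**Figure D1:**
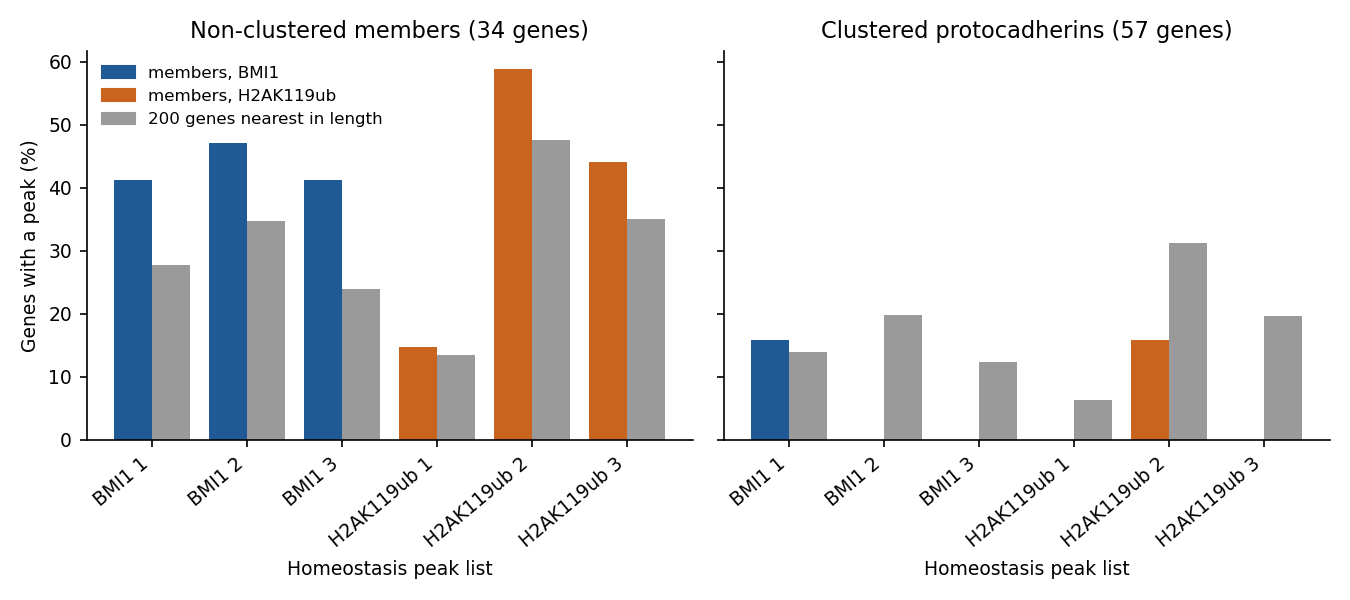
Percent of genes with a peak in each Homeostasis list (x axis), for the 34 stand-alone members on the left and the 57 clustered protocadherins on the right; coloured bars are the members and grey bars the mean over the 200 genes nearest in length to each. Coloured bars stand above grey ones in all 6 lists on the left, while on the right 4 of 6 lists have no coloured bar. The coloured bars that remain on the right come from 1 gamma array site, counted for 9 overlapping or adjacent genes.

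The stand-alone members with peaks were the long ones. Of 19 members over 100 kb, 17 had a homeostasis peak, against 4 of 15 shorter members. Among non-member genes the shares were 64.3% over 100 kb and 13.7% at or below it, and 19.3% of all genes had such a peak. The 18 members with a recurrent peak of either antibody had a median length of 394 kb, and the other 16 a median of 36.1 kb. Across the 34 genes, length and the sum of homeostasis peaks had a Spearman rho of 0.87, and over all protein-coding genes, most of them without a peak, 0.38. Both describe genes that share the same 6 libraries. Counted per length, the 91 members together differed little from other genes. Member spans held 1.16 ± 0.0723 times the BMI1 peaks per Mb of other protein-coding genes (SD, n = 3, range 1.11 to 1.24) and 1.07 ± 0.329 times the H2AK119ub peaks (n = 3), the latter from 0.701 in replicate 1 to 1.34 in replicate 3 and with a mean of 0.931 without replicate 3. Without the clustered arrays the ratios were 1.21 ± 0.1 for BMI1 (n = 3, range 1.12 to 1.32) and 1.13 ± 0.347 for H2AK119ub (n = 3, range 0.746 to 1.42). Flanks reaching 500 kb beyond the member spans gave nearly the same density: the ratio of members to flanks was 1.14 ± 0.0404 for BMI1 (n = 3) and 1.13 ± 0.105 for H2AK119ub (n = 3). The members' peaks per Mb were thus close to those of their surroundings.

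**Figure D2:**
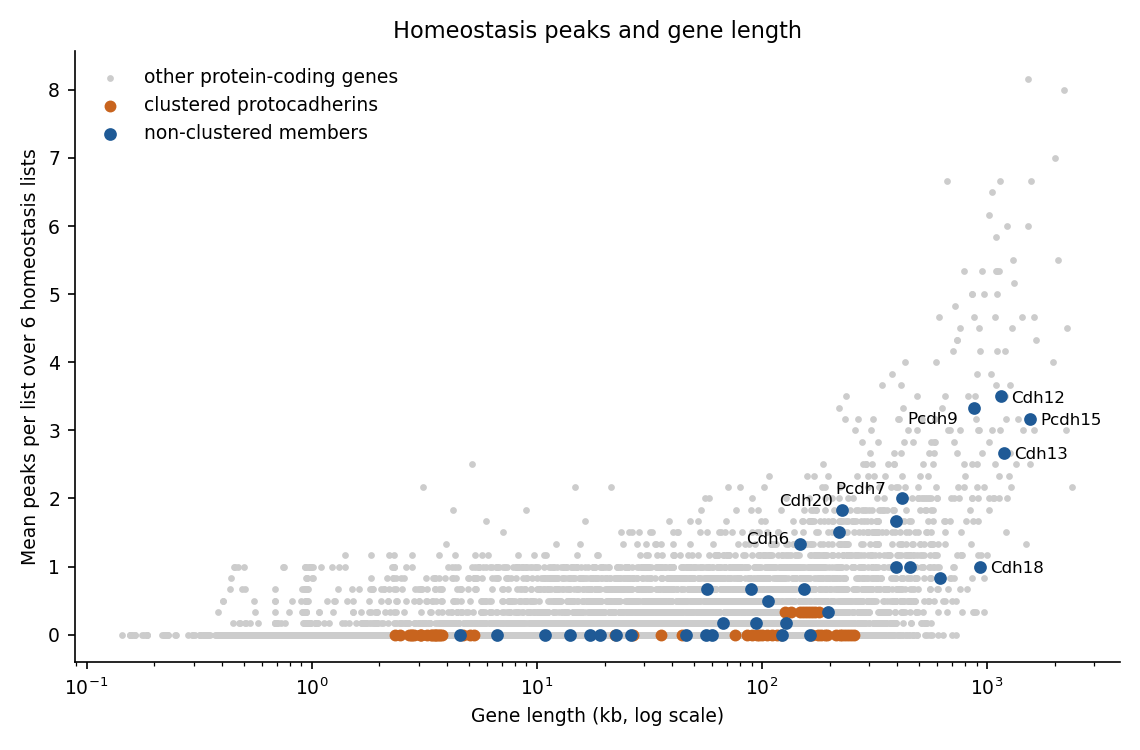
Mean number of peaks per list over the 6 Homeostasis lists (y axis) against gene length in kb on a log scale (x axis), for stand-alone members (blue), clustered protocadherins (orange) and the other protein-coding genes (grey). Members over 400 kb such as Cdh12 and Pcdh15 lie within the cloud of other long genes, and the clustered genes lie at or near 0.

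Among the 5 classical type I cadherins, 2 had a recurrent BMI1 peak and 2 a recurrent H2AK119ub peak, against 1.0 and 1.28 expected from length neighbours. Cdh2, N-cadherin, (chromosome 18, 16588877 to 16809246) had 2, 2 and 1 BMI1 peaks in replicates 1 to 3 and 0, 2 and 2 H2AK119ub peaks. All 3 BMI1 lists and the longer 2 H2AK119ub lists therefore held it, and no Damage list did. Its mean number of BMI1 peaks was above that of 92.5% of its 200 length neighbours, and its H2AK119ub mean above that of 82.0%. Cdh4, R-cadherin, known from the retina, (chromosome 2, 179442423 to 179899377) had 0, 1 and 1 BMI1 peaks and 1, 3 and 0 H2AK119ub peaks, an irregular pattern in which each antibody lacked it in 1 list. Cdh1, E-cadherin of epithelia, had a single peak, in Homeostasis H2AK119ub replicate 2. Cdh3 and Cdh15, P-cadherin and M-cadherin, had none.

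Type II cadherins, many of which are expressed in neurons, held the largest number of recurrent members: 7 of 12 with BMI1 and 7 of 12 with H2AK119ub, against 3.73 and 4.61 expected from length neighbours. Cdh12 (chromosome 15, 20448878 to 21598421) had 3, 3 and 1 BMI1 peaks and 0, 9 and 5 H2AK119ub peaks. Its 9 peaks in Homeostasis H2AK119ub replicate 2 were the highest count of a member in any list, and it was absent from the shortest list. Cdh8 (chromosome 8, 99024471 to 99417666) had exactly 1 peak in each of the 6 Homeostasis lists, all within 326 bp of each other. Cdh20 (chromosome 1, 104768340 to 104995481) had 1, 2 and 1 BMI1 peaks and 1, 3 and 3 H2AK119ub peaks, so it too was in all 6 lists. Its mean was above that of 89.5% of its length neighbours for BMI1 and 97.5% for H2AK119ub.

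Cdh6, K-cadherin of the kidney, (chromosome 15, 13028699 to 13176407) had 1, 2 and 1 BMI1 peaks and 0, 2 and 2 H2AK119ub peaks, above 95.0% and 93.0% of its length neighbours. Cdh11, a cadherin of mesenchymal cells and fibroblasts, (chromosome 8, 102632095 to 102785493) had 1, 1 and 0 BMI1 peaks and 0, 1 and 1 H2AK119ub peaks. Both were missing from Homeostasis H2AK119ub replicate 1, and Cdh11 also from a BMI1 list. Cdh18 had 0, 2 and 1 BMI1 peaks and 0, 3 and 0 H2AK119ub peaks over 929 kb, fewer than the mean of its length neighbours for both antibodies (1.0 against 1.75 and 1.0 against 2.51). Cdh19, known from Schwann cells, had 0, 1 and 1 BMI1 peaks and 0, 1 and 1 H2AK119ub peaks. Cdh10 had a peak in 2 H2AK119ub lists and no BMI1 list, and Cdh9 a single BMI1 peak. Cdh24 had none. Cdh7 (163 kb) and Cdh22 (123 kb) were the only members over 100 kb outside the clustered arrays with no peak in any of the 12 lists.

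Of the 5 remaining cadherins, 3 had a recurrent BMI1 peak and 2 a recurrent H2AK119ub peak, against 1.43 and 1.76 expected. Cdh13, T-cadherin, which lacks a transmembrane domain, is anchored by a lipid and binds adiponectin, (chromosome 8, 118140017 to 119324929) had 1, 3 and 1 BMI1 peaks and 1, 5 and 5 H2AK119ub peaks. Cdh23, which forms the tip links of hair cells, (chromosome 10, 60302748 to 60696513) had 1, 2 and 1 BMI1 peaks and 1, 2 and 3 H2AK119ub peaks. Both genes were in all 6 Homeostasis lists, but they stood less far from their length neighbours: Cdh13 was above 49.5% of them for BMI1 and 73.0% for H2AK119ub, and Cdh23 above 75.5% and 78.5%. Cdh26 (chromosome 2, 178430515 to 178487366) had 1 peak in each BMI1 list and 0, 1 and 0 H2AK119ub peaks. It was the shortest stand-alone member with a peak, at 56.9 kb. Cdh16 and Cdh17, cadherins of kidney and intestine, had none.

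Among non-clustered protocadherins, 2 of the 4 delta-1 genes had a recurrent BMI1 peak and 3 a recurrent H2AK119ub peak, against 1.91 and 2.25 expected from length neighbours. Pcdh9 (chromosome 14, 93013700 to 93892834) had 1, 5 and 2 BMI1 peaks and 0, 8 and 4 H2AK119ub peaks. Pcdh7 (chromosome 5, 57716145 to 58133236) had 2, 2 and 1 BMI1 peaks and 0, 5 and 2 H2AK119ub peaks. Pcdh11x, on the X chromosome, had 0, 1 and 0 BMI1 peaks and 0, 3 and 1 H2AK119ub peaks. All 3 were missing from Homeostasis H2AK119ub replicate 1, the shortest list, and had the most peaks in replicate 2, the longest. Pcdh1, the remaining delta-1 gene, had none. Of the 5 delta-2 genes, 0 had a recurrent BMI1 peak and 1 a recurrent H2AK119ub peak, against 0.435 and 0.655 expected. Pcdh19, linked to epilepsy in girls, had 1, 0 and 0 BMI1 peaks and 0, 1 and 1 H2AK119ub peaks, Pcdh17 had a single H2AK119ub peak, and Pcdh8, Pcdh10 and Pcdh18 had none. Pcdh15, the partner of Cdh23 in tip links and the longest member at 1554 kb, (chromosome 10, 73096277 to 74649831) had 2, 5 and 3 BMI1 peaks and 0, 4 and 5 H2AK119ub peaks. Per 100 kb that is 0.213 BMI1 and 0.192 H2AK119ub peaks per list, lower than the 0.845 of the shorter Cdh6 for either antibody. Pcdh12, a protocadherin of endothelial cells, and Pcdh20 had none.

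**Figure D3:**
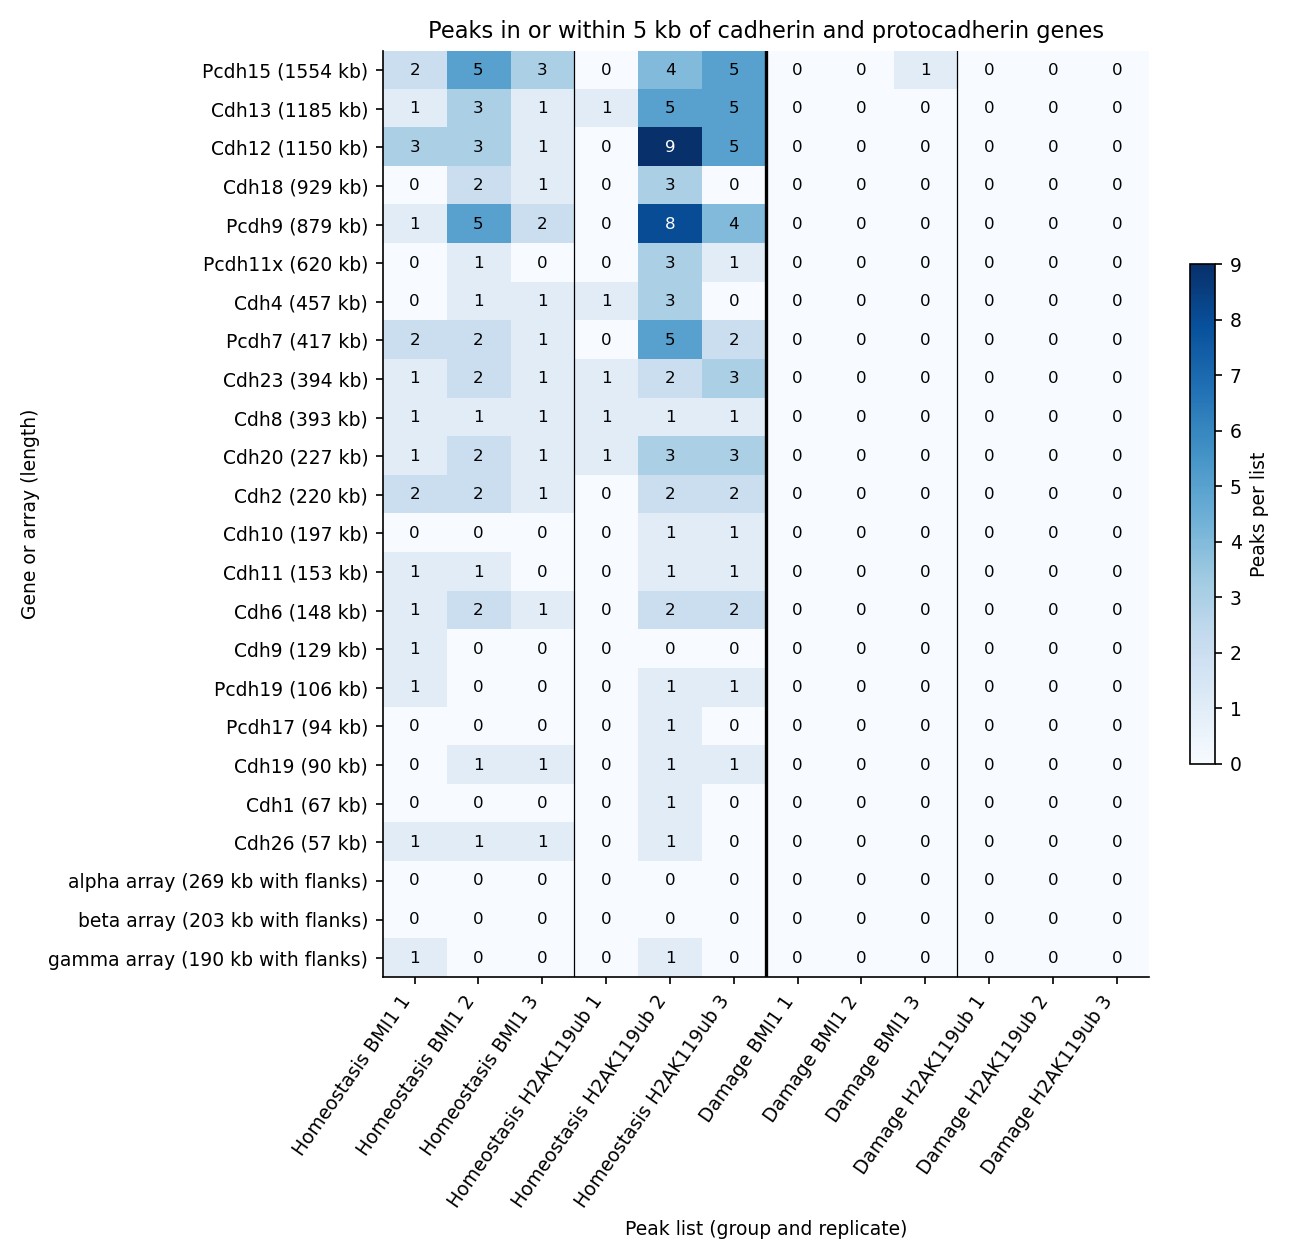
Number of peaks in or within 5 kb of each gene (rows, longest first, with the 3 clustered arrays as loci at the bottom) in each of the 12 lists (columns, Homeostasis left of the thick line and Damage right). Peaks fill the left side for the longer genes, and the Damage side holds a single peak, in Pcdh15.

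The clustered arrays were counted as loci, because 1 peak can fall in or near many of their genes. The alpha array (14 genes, chromosome 18, 36930285 to 37188897) and the beta array (22 genes, 37264998 to 37521419) held 0 peaks in all 12 lists. The gamma array (21 genes, 37661775 to 37841873) held 1 site, present in Homeostasis BMI1 replicate 1 and Homeostasis H2AK119ub replicate 2 (37710638 to 37710756). It lies in 8 overlapping gamma genes and within 5 kb of Pcdhga7, so 9 clustered genes count as having a peak in each of those lists. With the 5 kb margins the arrays cover 0.661 Mb, and at the density of other protein-coding genes that length would hold 8.7 peaks over the 6 Homeostasis lists, where 2 were listed. The stand-alone members held 169 peaks over 10.4 Mb, against 137 at the same density. How reads from near-identical array genes were aligned is not given in the sources used here, so these counts are uncertain.

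Peaks of different lists were next merged into sites, to see whether they recur at the same positions within these long genes. The 171 homeostasis peaks of the members formed 74 sites, of which 70 lay in a gene body. In 2 or more lists were 39 sites (52.7%, against 48.8% of the sites of other protein-coding genes), and in 4 or more lists 20 (27.0% against 22.3%). Of the 39 recurrent sites, 34 held both antibodies (87.2% against 86.3%), 5 held H2AK119ub alone and 0 held BMI1 alone. Of the 35 sites seen once, 19 came from Homeostasis H2AK119ub replicate 2. Only 1 site was in all 6 lists by an overlap of 1 bp or more (1.35% against 6.95%). It lay within Cdh23 (chromosome 10, 60494864 to 60495049). Joining peaks that lie within 200 bp of each other, a rule chosen after seeing the data, gave 3 such sites, with those of Cdh8 (chromosome 8, 99225091 to 99225416) and Cdh20 (chromosome 1, 104840717 to 104840976) added. The other sites in 5 lists lay in Pcdh15 (chromosome 10, 73510384 to 73510585), Cdh12 (chromosome 15, 20701577 to 20701742), Cdh2 (chromosome 18, 16768815 to 16768921) and Cdh13 (chromosome 8, 119305005 to 119305117). None of the 74 sites lay on a tRNA or 5S ribosomal RNA gene, against 0.905% of the sites of other genes.

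**Figure D4:**
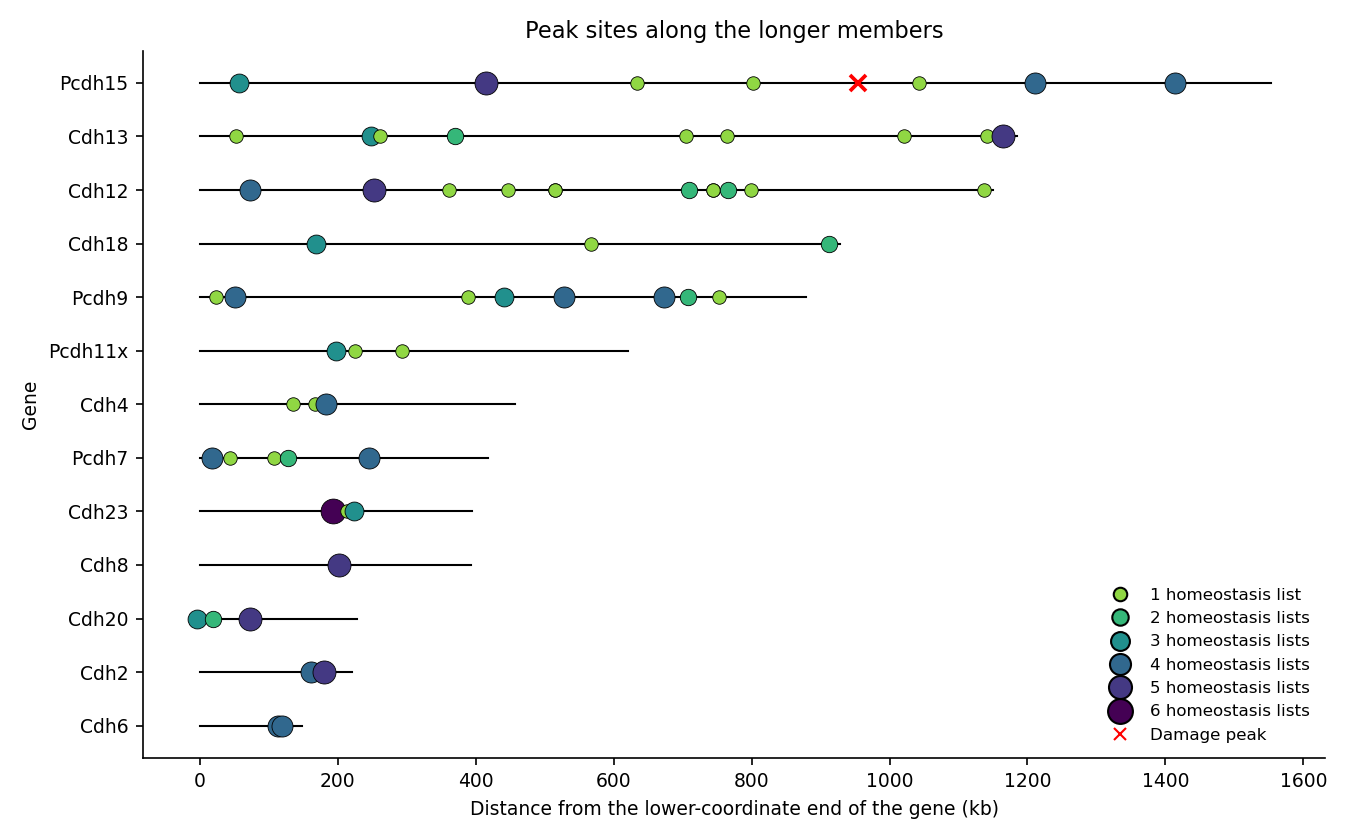
Sites of peaks along 13 longer members, each drawn to scale as a line from its lower-coordinate end (x axis, kb); the size and colour of a circle give the number of Homeostasis lists that hold the site, and the cross marks the Damage peak of Pcdh15. Sites are scattered along the genes, and the Damage peak coincides with no homeostasis site.

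Few sites lay at promoters. The RefSeq promoter table of GRCm38.p6, which gives the 250 bases before and 50 after listed start sites, held 22 of the 91 members, with 25 promoters. Of 52 sites in or beside these members, 3 were centred within 1 kb of a listed start site (5.77%, against 3.59% for other genes in the table), and the median distance was 147 kb. These were the 2 sites upstream of Cdh26 and the site of Pcdh17. A long gene can have start sites that the table does not list. The 250 bases upstream of both start sites are shown because no other listed member start lay so near a peak. For Cdh26 (GRCm38.p6, chr2:178430265-178430514, plus strand) capitals mark the 7 bases covered by a peak, and for Pcdh17 (chr14:84443313-84443562, plus strand) they mark CG dinucleotides.
Cdh26: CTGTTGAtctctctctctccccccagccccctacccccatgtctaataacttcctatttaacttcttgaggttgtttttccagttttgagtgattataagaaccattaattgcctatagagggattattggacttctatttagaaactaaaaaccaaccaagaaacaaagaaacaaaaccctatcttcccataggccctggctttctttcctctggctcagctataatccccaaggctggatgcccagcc
Pcdh17: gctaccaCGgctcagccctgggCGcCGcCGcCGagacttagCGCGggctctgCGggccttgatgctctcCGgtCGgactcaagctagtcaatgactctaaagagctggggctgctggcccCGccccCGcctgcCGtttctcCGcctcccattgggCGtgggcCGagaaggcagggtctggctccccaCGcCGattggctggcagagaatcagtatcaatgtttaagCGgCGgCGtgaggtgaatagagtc
The Cdh26 site (chromosome 2, 178430165 to 178430271) was in Homeostasis BMI1 replicates 1 and 2 and Homeostasis H2AK119ub replicate 2, and the BMI1 replicate 3 peak lay beside it (178429951 to 178430051). The Cdh26 sequence was the only one of the 25 member promoters that a homeostasis peak overlapped. It holds 0 CG dinucleotides, as do 6.61% of 21263 listed promoters of protein-coding genes, counted over the 250 upstream bases. The Pcdh17 sequence holds 21, and 21.5% of the promoters hold as many or more. Its single peak (chromosome 14, 84442685 to 84442785), in Homeostasis H2AK119ub replicate 2, was centred 0.828 kb upstream of the start and also lay in a long non-coding RNA gene, Gm32498. CpG-rich promoters of the family without a peak nearby included those of Cdh22 with 30 CG, Pcdh18 with 23, Pcdh10 with 22 and Cdh24 with 22. The median over member promoters was 10, the same as over all promoters of the table.

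The order of lines in a list was examined because the score is constant. Sources used here do not say what the order means, but it was shared between libraries: for peaks overlapping between 2 Homeostasis lists, Spearman's rho of their places in the lists was 0.63 to 0.76 over the 15 pairs of lists (1540 to 6281 overlapping peaks each), a description over peaks. Member sites in 4 or more lists stood at a median place of 43.6% of the way down a list, those in 2 or 3 lists at 67.0% and those in 1 list at 74.1%. Sites of other protein-coding genes stood at 37.4%, 60.9% and 72.4%. The Cdh23 site came first among members, at a mean place of 6.29%, followed by a Cdh9 site seen in 1 list (15.7%) and the 5-list site of Cdh13 (19.0%). The median place of member peaks was later than that of peaks of other genes in 5 of 6 Homeostasis lists, with means of 61.1% and 49.4% for BMI1 and 60.9% and 49.0% for H2AK119ub (n = 3 each). The exception was Homeostasis H2AK119ub replicate 2, with 45.2% and 50.2%.

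**Figure D5:**
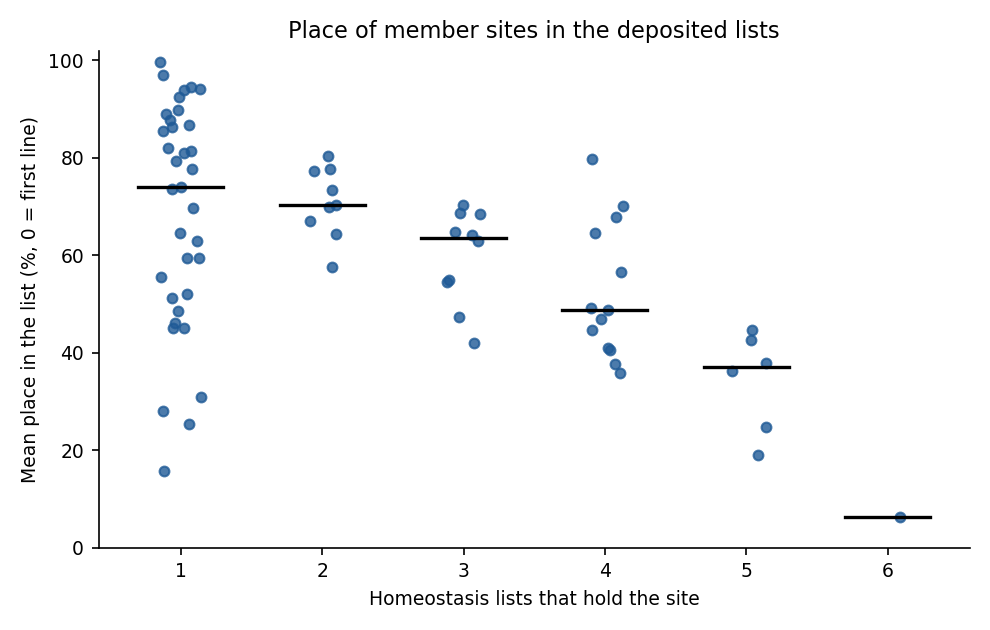
Mean place of each of the 74 member sites in the lists that hold it, as percent of the way down the list (y axis), against the number of Homeostasis lists that hold the site (x axis); bars are medians and points are spread sideways for legibility. Sites in more lists stand nearer to the first line, down to 6.29% for the site of Cdh23.

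After paraquat, 1 of the 91 members had a peak in any Damage list, against 0.283% of all protein-coding genes. Per Damage list the mean number of members with a peak was 0.167, close to the 0.148 expected from genes nearest in length (n = 6). The member peak was a 101 bp peak in Pcdh15, the longest member, in Damage BMI1 replicate 3 (chromosome 10, 74051115 to 74051215), at a position with no homeostasis peak. The other 5 Damage lists held 0 member peaks. The Damage lists have 217 peaks in all, so 1 member peak is 0.461% of them (exact 95% binomial interval 0.0117 to 2.54%, counting error only). At homeostasis 171 of 39615 peaks, or 0.432%, were in or near members, a share at which 217 peaks would hold 0.937. By Homeostasis list the share was 0.398, 0.453 and 0.417% for BMI1 and 0.25, 0.43 and 0.492% for H2AK119ub. In a Damage list of 19 to 68 peaks a count of 0 allows a share of up to 15.8% to 4.41%, so a change in the members' share of peaks was not detectable at this number of peaks.

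The number of peaks per gene was then compared between treatments over all 4247 protein-coding genes with a peak in any list, by a two-sided exact permutation test with treatment permuted within antibody and Benjamini-Hochberg adjustment. Of these genes 4222 had a homeostasis peak and 62 a Damage peak, as did 30 and 1 of the members. Nearly all thus entered through the Homeostasis lists, so the direction was largely fixed by this selection and is no support for a fall. Of the 30 members, 9 are gamma array genes that share 1 site, so a share of the 30 counts that site 9 times. Higher at homeostasis were 555 genes, 13.1% of those tested, and 4 of the 30 members tested were among them: Cdh8, Cdh13, Cdh20 and Cdh23 (exact permutation p = 0.005, adjusted p = 0.0383 for each). These are the members with a peak in all 6 Homeostasis lists, which 2.55% of all protein-coding genes had, and in no Damage list. Their mean difference, homeostasis minus damage, was 1.0 peak per list for Cdh8, 2.67 for Cdh13, 1.83 for Cdh20 and 1.67 for Cdh23, and all 6 Homeostasis lists were above all 6 Damage lists. A further 6 members had an unadjusted exact permutation p of 0.02 and an adjusted p of 0.0843: Pcdh15, Pcdh9, Pcdh7, Cdh12, Cdh6 and Cdh2, each with no peak in Homeostasis H2AK119ub replicate 1. Unadjusted p-values under 0.05 with higher values at homeostasis were reached by 10 members and by 23.8% of all genes tested. Homeostasis lists lay above Damage lists without overlap for 11 members with BMI1, against 22.8% of genes tested, and for 4 members with H2AK119ub, against 15.0%. No member had more peaks after damage on average, which for all but Pcdh15 was fixed in advance, as they were tested only for their homeostasis peaks. The Damage lists lay above the Homeostasis lists with BMI1 for 0 members and 0.0235% of genes tested, and an unadjusted p under 0.05 with more peaks after damage was likewise reached by 0 members and 0.0235% of genes. The test used peak numbers as deposited, and every Damage list was shorter than every Homeostasis list, so a fall at a gene and a shorter list cannot be told apart. The 4 calls were lost without any single Damage H2AK119ub library (0 genes called, 931 or 932 at an unadjusted exact permutation p under 0.05). Cdh13 also missed the threshold without any single Damage BMI1 library (adjusted exact permutation p 0.0905 to 0.0908). Without Homeostasis H2AK119ub replicate 1 the count was 933 genes, with 10 members among them.

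BMI1 and H2AK119ub were compared at homeostasis as peaks per 1000 peaks of the list, to take out the length of the lists. Of 30 members with a homeostasis peak, 19 had a higher BMI1 mean and 11 a higher H2AK119ub mean, and 9 of the 19 are gamma array genes that share 1 site. The median difference, BMI1 minus H2AK119ub, was 0.0417 per 1000 for members and -0.0247 for all 4222 genes tested. Each of the 9 gamma array genes has this same 0.0417 through the shared site, so the members' median counts 1 site 9 times. Its sign is therefore not a trait of the members in general. Cdh26 was the only member whose lists did not overlap between antibodies, with 0.193 ± 0.0565 BMI1 (SD, n = 3) and 0.0247 ± 0.0428 H2AK119ub peaks per 1000 (n = 3). BMI1 lists were above H2AK119ub lists for 5.68% of genes tested, and the reverse held for 0.403% and for 0 members. This balance turned with the scaling: with unscaled counts 2 genes had higher BMI1 lists and 4 higher H2AK119ub lists, and 0 members, Cdh26 included, separated the antibodies. With 3 lists against 3 the smallest exact two-sided permutation p is 0.1, so no gene could pass adjustment (0 of 4222 also at an unadjusted p under 0.05). Pcdh15 had 0.6 ± 0.178 BMI1 and 0.32 ± 0.333 H2AK119ub peaks per 1000 (exact permutation p = 0.2), and Cdh13 had 0.281 ± 0.105 and 0.512 ± 0.147 (exact permutation p = 0.2). For both genes the lists of the antibodies overlapped. The 240 genes with higher BMI1 lists became 440, 476 and 563 without Homeostasis BMI1 replicate 1, BMI1 replicate 3 and H2AK119ub replicate 1, and the 17 with higher H2AK119ub lists became 289 without H2AK119ub replicate 1 and 27 to 54 without BMI1 replicate 2 or 3 or H2AK119ub replicate 2 or 3.

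Genes that work with these cadherins were counted from 2 lists. Of 28 other genes of the cadherin superfamily, among them desmosomal cadherins, Fat and Celsr genes and Cdh5, 3 had a recurrent BMI1 peak and 5 a recurrent H2AK119ub peak, against 3.41 and 4.23 expected from genes nearest in length. Fat3, a giant cadherin of neuronal wiring, had 2, 5 and 2 BMI1 peaks and 1, 8 and 6 H2AK119ub peaks. Of 20 cytoplasmic partners such as catenins, plakophilins and vinculin, 8 had a recurrent BMI1 peak and 9 a recurrent H2AK119ub peak, against 5.75 and 6.85 expected. Dsp, encoding desmoplakin of the desmosome, had 1 peak in each of the 6 Homeostasis lists over 47.3 kb, and Ptprm, a receptor phosphatase found at cadherin junctions, had 1, 4 and 2 BMI1 peaks and 2, 5 and 4 H2AK119ub peaks. Of the 20, 13 had a peak in any Homeostasis list, against 19.3% of all protein-coding genes. The catenin genes Ctnnb1 and Ctnnd1 were among those with none. Only 1, Ctnna2, had a Damage peak, in BMI1 replicate 3, against 0.283% of all genes.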

How the data were processed

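Peaks of 12 ChIP-seq libraries were used, with 3 in each of 4 groups set by the sample labels. Per the submitters' processing notes, Bowtie2 and HOMER 4.8 were used with GRCm38. How peaks were thresholded, and whether Input served as control, is not given in the sources used here. Deposited BED files give positions and a score, set by the authors to 1 for every peak, so peaks have no height and depth is unknown. Peaks outside the assembled chromosomes (143 of 39832) were assigned to no gene.

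Gene spans came from the RefSeq annotation of GRCm38. A peak counted for a gene by an overlap of 1 bp or more with the gene or 5 kb around it, and peaks of different lists with such an overlap formed a site. Expected counts are means over the 200 non-member genes nearest in length. For the longest members the match is loose (529 to 2390 kb for Pcdh15). Exact binomial (Clopper-Pearson) intervals, at 95%, and limits for a count of 0, at 3 counts, cover counting error only. Treatments were compared by an exact permutation test over libraries within antibody and antibodies by one over the 6 Homeostasis libraries, both fitted on all protein-coding genes with a peak, with Benjamini-Hochberg adjustment and a threshold of 0.05. The smallest p these allow is 0.005 and 0.1.

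Named with values are members recurrent with either antibody at homeostasis (a peak in at least 2 of 3 lists) or present in a Damage list, those over 100 kb with no peak, and Cdh1, Cdh2 and Cdh11. The other members and the genes of the non-member lists that are named were chosen after their values were seen. The members, the lists and the tests were chosen with earlier results of these data known. Alternatives were other windows, neighbour sets and recurrence rules, scalings, leaving out each library, the replicate number as a block and joining peaks within 200 bp. Scripts (Python 3.11.15, numpy 2.4.6, pandas 2.3.3, scipy 1.17.1) were tested on simulated data.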

Additional observations from a re-analysis of the deposited data

How the results depend on the processing

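Read depth is unknown and a gene holds few peaks in a list, so differences of 1 peak rest on peak thresholds that are not known. The Damage lists are too short to compare the members' share of peaks. Of the summary values, 42 stayed within 1.5 times the reported value or within its spread and 22 moved. The H2AK119ub density ratio, 1.07, lay on the other side of 1 without replicate 3 (0.931). Requiring a peak in 1 or more of 3 lists gave 27 members for BMI1 and 29 for H2AK119ub, and requiring all 3 gave 11 and 4. The direction of these moves follows from the rule, but their size does not. Homeostasis H2AK119ub replicate 1, the list of 2000 peaks, held a peak for only 5 members. Leaving out each library gave 4 to 15 members for H2AK119ub and 11 to 14 for BMI1. For treatment, genes called ranged from 0 to 933 when each library was left out. They were 1008 when only genes with a peak in 3 or more lists were tested, which shortens the list that is adjusted over, and 10 members were then called. For antibody, the balance of 240 genes with higher BMI1 lists and 17 with higher H2AK119ub lists turned to 2 and 4 with unscaled counts, and the cause was not tested. Leaving out each library gave 286 to 563 and 24 to 289 such genes, where fewer lists overlap less often by construction. In the gene body alone Cdh26, whose sites lie upstream, had no peak. Joining peaks within 200 bp, chosen after seeing the data, gave 68 sites, 41 of them in 2 or more lists.

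Replicate numbers are shared between groups in the labels, but same-numbered libraries did not consistently deviate together. Between antibodies at homeostasis the correlations over genes were 0.042, 0.298 and -0.131 for replicates 1 to 3, and -0.309 to 0.224 for differently numbered pairs. The 0.298 of replicate 2 was the highest of these. Between treatments the correlations of same-numbered libraries were -0.035 to 0.025. With the replicate number as a block, 0 genes were called for treatment (556 at an unadjusted exact permutation p under 0.05, smallest adjusted p 0.239). This test swaps treatment only within same-numbered pairs, so its smallest exact permutation p is larger than the 0.005 of the unblocked test. The 0 calls therefore cannot decide whether the treatment calls hold with blocks. For antibody, 270 genes had higher BMI1 and 61 higher H2AK119ub values in every pair.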
